A study of Mus musculus with 9 samples.

Results

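The 10 genes described here are markers of immature olfactory sensory neurons (OSNs): Gap43, Gng8, Stmn1, Stmn2, Dcx, Tubb3, Ncam1, Cxcr4, Dbn1 and Crmp1. They were taken by symbol from a list fixed by name and not by measured values, though earlier results of these data were known when it was chosen. All 10 were found among the 23607 genes of the deposited count tables. OSNs are replaced throughout life from basal cells of the olfactory epithelium (OE), and a newborn OSN extends an axon to the olfactory bulb before it takes on the transduction machinery of a mature cell. During that phase it carries proteins of the growing axon, such as the growth cone protein GAP43, microtubule regulators and adhesion molecules. Olfactory marker protein, Omp, marks the mature cell that follows, and Gap43 and Omp are the usual pair for telling both stages apart.

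The libraries came from immunoprecipitation of phosphorylated ribosomal protein S6 (pS6-IP) from the OE of 9 C57BL/6 mice, followed by RNAseq. S6 becomes phosphorylated in activated neurons, so the mRNAs recovered are weighted towards cells active at that time, and the counts are not a census of the tissue. Each mouse was exposed for 1 hr to a filter paper with distilled water (control), 1% heptanal or 100% heptanal, with 3 mice a group, and heptanal is an odorous aldehyde. Each group held 1 mouse of postnatal day 18, 1 of day 21 and 1 of day 22, and the mice of a replication were littermates of the same sex. The labels give no litter or replication number, so the mice of a day were taken as 1 replication. The words litter and littermate below rest on that. On this reading day and litter cannot be told apart, and every difference between days below is equally one between 3 litters of 3 mice. The sample titles began with YJC for the mice of day 22 and with YJE for those of days 18 and 21. What these prefixes record is not stated, and day 22 cannot be told apart from it. The X-inactivation transcript Xist had 14 to 19 counts in the mice of day 21 and 0 to 2 in the others, and the Y-linked Ddx3y had 0 counts at day 21, 34 to 85 at day 18 and 2 to 6 at day 22. By these genes sex also differed between day 21 and each other day, but not between days 18 and 22. Libraries held 5438494 to 9707592 estimated counts, with a median of 7305895. Levels are given as CPM, the estimated count of a gene divided by the library's total and multiplied by 1000000. Fosb, an activity-dependent gene used to check the labels, had 1.69 to 3.91 CPM in the controls, 6.14 to 9.27 CPM at 1% and 67.3 to 93.4 CPM at 100% heptanal. All libraries are pS6-IP, without a library of the input RNA. Fewer cells of a type, less RNA per cell and less of that RNA recovered with phosphorylated S6 therefore cannot be told apart.

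Whose reads are counted matters for this list before any comparison, because 2 of the markers have near-identical copies elsewhere in the genome. Stmn1 encodes stathmin, which binds free tubulin and destabilizes microtubules. Of its 64181 estimated counts over the 9 mice, 121 came from reads that mapped to 1 place, 47.5% of the total were added with reads of 2 places and another 47.6% with reads of 3 places. Tubb3 encodes a neuronal beta-tubulin, and 33.8% of its counts came from reads of 1 place, 53.9% from reads of 2 places and 12.3% from reads of more. The number of places was read from the order of the tables' unlabelled columns. For the other 8 genes, reads of 1 place gave 97.25% of the counts or more.

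In GRCm38 (mm10), 58.9% of the 50-base windows in the annotated exons of Stmn1 occurred without a mismatch at more than 1 place, and 80.5% of those in its coding exons did. The windows of Tubb3 did so for 11.2% of exons and 7.28% of the coding part, and of the other genes Ncam1 was highest with 1.22%. The stretch of coding sequence below is the longest that Stmn1 shares with copies on chromosomes 4 and 17, widened by up to 10 bases on each side. It is printed because a read that lies within its shared bases carries no sign of its origin. Capitals mark the positions at which the copies differ, and all are read along the strand of the gene or of the copy. Stmn1 is at chr4:134470686-134470767 on the plus strand, the processed copy Gm11223 at chr4:69925966-69926047 on the minus strand and Stmn1-rs2 at chr17:70393353-70393434 on the minus strand.
Stmn1: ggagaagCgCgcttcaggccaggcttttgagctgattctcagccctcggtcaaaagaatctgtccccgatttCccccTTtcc
Gm11223: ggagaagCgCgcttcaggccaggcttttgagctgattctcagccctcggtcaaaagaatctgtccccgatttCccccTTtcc
Stmn1-rs2: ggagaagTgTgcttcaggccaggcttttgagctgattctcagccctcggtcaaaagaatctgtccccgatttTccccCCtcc

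Over these 82 bases Gm11223 had 0 differences from Stmn1 and Stmn1-rs2 had 5, with 62 consecutive bases common to all 3 loci. For Tubb3 the corresponding coding stretch at chr8:123418963-123419050 had 1 difference in 88 bases from Tubb3-ps1, at chr6:136398666-136398753, both on the plus strand.
Tubb3: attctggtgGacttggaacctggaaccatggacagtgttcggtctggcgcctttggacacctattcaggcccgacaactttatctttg
Tubb3-ps1: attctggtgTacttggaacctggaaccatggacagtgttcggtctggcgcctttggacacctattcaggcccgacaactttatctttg

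None of these 3 pseudogenes is a row of the count tables under these names, so whether reads were withheld from or shared with them by the authors' scheme was not tested. The level of Stmn1 below, and most of that of Tubb3, is what that scheme assigned.

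**Figure D1:**
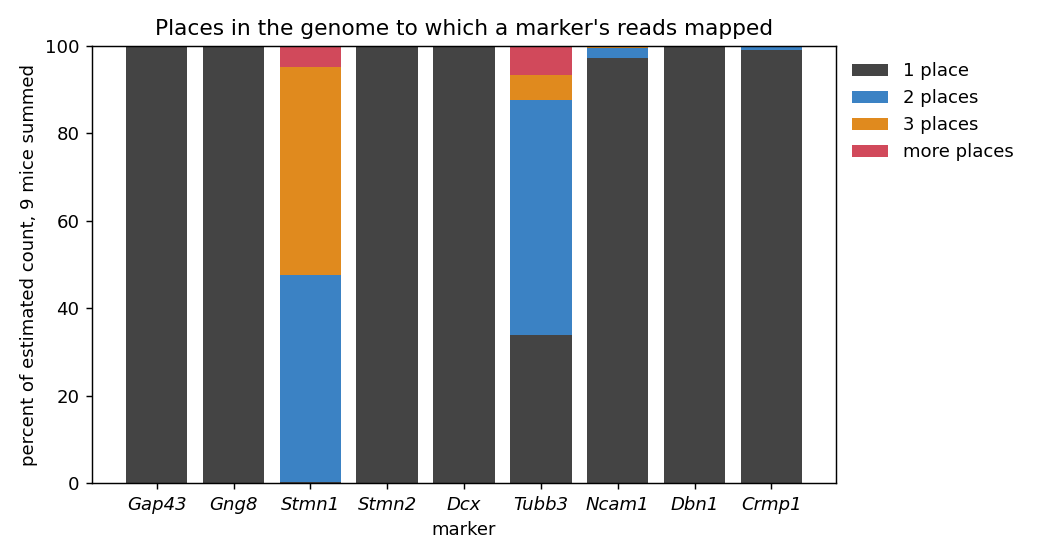
Share of each marker's estimated count (y axis, percent, 9 mice summed) that came from reads mapping to 1, 2, 3 or more places, for the markers on the x axis, with Cxcr4 left out for its 16 counts. Stmn1 had 0.189% from 1 place and Tubb3 33.8%, while the other bars are almost wholly from 1 place.

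Per kilobase of annotated exon (RPKM, the CPM divided by exon length), the markers spanned more than 3 orders of magnitude. The cDNA was made with a poly-T primer, and whether counts rose with exon length was not tested, so the order depends on this division. By CPM alone Ncam1, with 98.4 to 242, lay above Gng8, with 21.4 to 48.5, the reverse of their order here. Stmn1 was highest with a mean of 644 ± 126 RPKM (SD, n = 9). Gap43 followed with 248 ± 75.2, Tubb3 with 213 ± 28.8 and Stmn2, a stathmin relative of growing neurites, with 177 ± 63.3. These last 3 are not separated by their spread: Gap43 exceeded Tubb3 in 7 of 9 mice, and Tubb3 exceeded Stmn2 in 6. Dbn1, which encodes the actin-binding protein drebrin, had 101 ± 73.0 RPKM, Crmp1, a collapsin response mediator of axon guidance, 36.5 ± 6.55, and Gng8, a G-protein gamma subunit of immature OSNs, 31.6 ± 8.82. Ncam1, the neural cell adhesion molecule, had 25.3 ± 6.09 RPKM, and neighbours in this part of the order were the right way round in 6 or 7 of 9 mice. At the bottom, Dcx, which encodes the microtubule-associated protein doublecortin, had 0.341 ± 0.273 RPKM and lay below Ncam1 in 9 of 9 mice.

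Cxcr4, a chemokine receptor of migrating and axon-extending neurons, was barely measured, with 0 to 4 counts per library. It exceeded the floor of 3 counts in only 2 mice, the controls of days 21 and 22, which had 4 counts each. The 2 libraries with 0 counts, control of day 18 and 1% heptanal of day 22, allow up to 0.363 and 0.419 CPM. It did not pass the filter on low counts, so tests were made on 9 of the 10 markers, and no direction is given for it. Dcx passed with 4 to 64 counts per library, and its fold changes carry wide intervals.

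**Figure D2:**
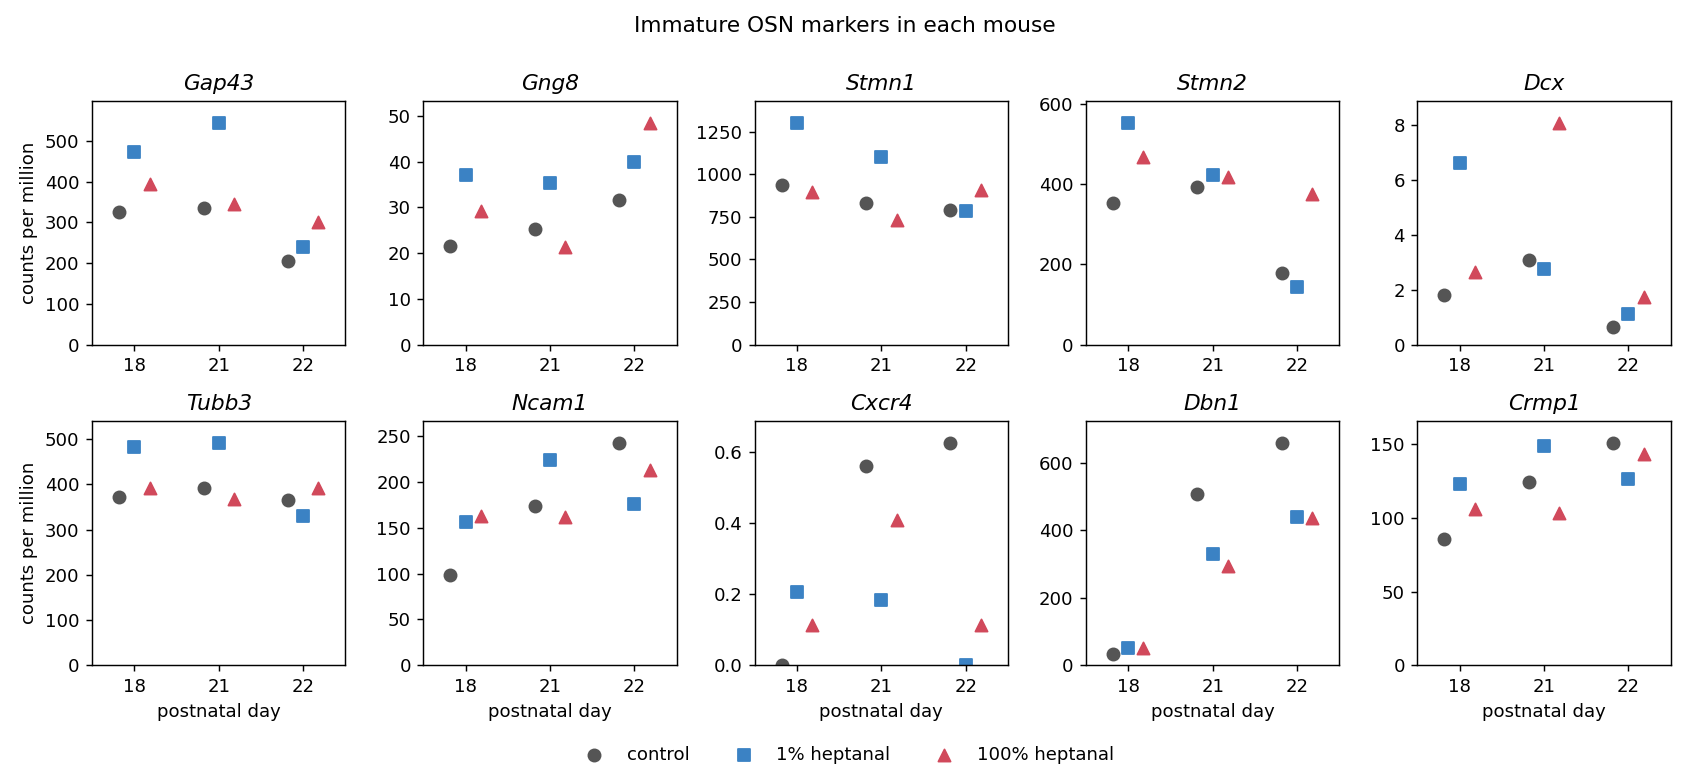
CPM (y axes, each from 0) of the 10 markers in each of the 9 mice, by postnatal day (x axis) and treatment (symbols). Dbn1 lies between 32.9 and 51.9 CPM at day 18 and between 296 and 658 CPM at days 21 and 22, whereas no marker separates the treatments to that extent.

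The comparison of treatments asks whether 1 hr of heptanal changed the recovery of immature-neuron mRNAs with phosphorylated ribosomes. No marker passed the threshold at either concentration. Against control, 0 of 9 were called at 100% heptanal, where 2 of the 14930 genes tested were (0.0134%), and 0 of 9 at 1% heptanal, where 0 of all genes were called (0.0%). Between 100% and 1% heptanal the counts were also 0 of 9 and 0.0134% of all genes. None of the 9 had an unadjusted p under 0.05 in these comparisons either, against 4.17%, 0.797% and 3.26% of all genes in the same order, by edgeR's quasi-likelihood test. With so few calls anywhere, the absence of a call says little about the markers, and the intervals below give the sizes that these 3 mice a group could not distinguish.

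Gap43 had 326, 337 and 206 CPM in the controls of days 18, 21 and 22. At 1% heptanal it had 473, 545 and 239 CPM, and at 100% heptanal 395, 345 and 301 CPM. Each exposed mouse was thus above its littermate control, by 1.16 to 1.62 times at 1% and by 1.03 to 1.46 times at 100%, but the groups overlapped. The log2 fold change was 0.47 (95% interval -0.22 to 1.15) at 1% and 0.25 (-0.43 to 0.93) at 100% heptanal, with an adjusted p of 1.0 for both in edgeR, and the value at 100% was -0.60 where libraries were scaled to mature OSN markers.

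Gng8 had 21.6, 25.2 and 31.7 CPM in the controls, 37.0, 35.3 and 39.9 CPM at 1% and 29.1, 21.4 and 48.5 CPM at 100% heptanal, in the order of days 18, 21 and 22. It was the one marker for which the 1% mice and the controls did not overlap, as was so for 4.49% of all genes tested. At 1% heptanal its log2 fold change was 0.48 (-0.22 to 1.19), with an adjusted p of 1.0 in edgeR. At 100% the mouse of day 21 was below its control and the other 2 were above. With postnatal day as a block, Gap43 and Gng8 at 1% heptanal had unadjusted p-values of 0.0211 and 0.0466 and adjusted p of 1.0, again in edgeR. In that fit 0 of 9 markers were called in each comparison of treatments, beside 0.322% of all genes at 100% heptanal against control, 0.0% at 1% and 0.0804% between concentrations.

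The stathmins had unlike profiles. Stmn1 had 937, 833 and 790.4 CPM in the controls, 1304, 1105 and 785 CPM at 1% and 899, 730.1 and 908 CPM at 100% heptanal. Stmn2 had 353, 394 and 178 CPM in the controls, 554, 423 and 143 CPM at 1% and 468, 418 and 375 CPM at 100% heptanal. The day 22 mouse at 100% heptanal thus had 2.10 times the Stmn2 of its control, while the day 21 mice differed by 1.06 times. Log2 fold changes at 100% heptanal were -0.025 (-0.49 to 0.44) for Stmn1 and 0.43 (-0.58 to 1.44) for Stmn2.

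Tubb3 had the narrowest interval of the list. It ranged from 366 to 391 CPM in the controls, from 330.2 to 491 CPM at 1% and from 368 to 393 CPM at 100% heptanal, so the control and 100% mice occupied nearly the same range. Its log2 fold change at 100% heptanal was 0.022 (-0.35 to 0.40). Crmp1 had 85.7 to 150.4 CPM in the controls, 123 to 149 CPM at 1%, 103 to 143 CPM at 100% and a log2 fold change at 100% of -0.0345 (-0.54 to 0.48). Ncam1 had 98.4 to 242 CPM in the controls, 156 to 224 CPM at 1% and 162 to 213 CPM at 100% heptanal, with a log2 fold change at 100% of 0.068 (-0.61 to 0.74).

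Dcx had the highest fitted ratio, at the lowest counts of the tested markers. It had 0.625 to 3.09 CPM in the controls, 1.12 to 6.59 CPM at 1% and 1.71 to 8.08 CPM at 100% heptanal. All 3 mice at 100% were above their littermate controls, by 1.45 to 2.74 times, and the log2 fold change was 1.15 (-0.84 to 3.14). Dbn1 had the most negative fitted value at both concentrations: the mice of days 21 and 22 had 0.581 to 0.670 times the level of their controls at both concentrations, and those of day 18 had 1.54 and 1.58 times. Its log2 fold change of -0.59 (-3.09 to 1.91) at 100% heptanal had the widest interval, since the 3 litters differed far more than the treatments did.

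**Figure D3:**
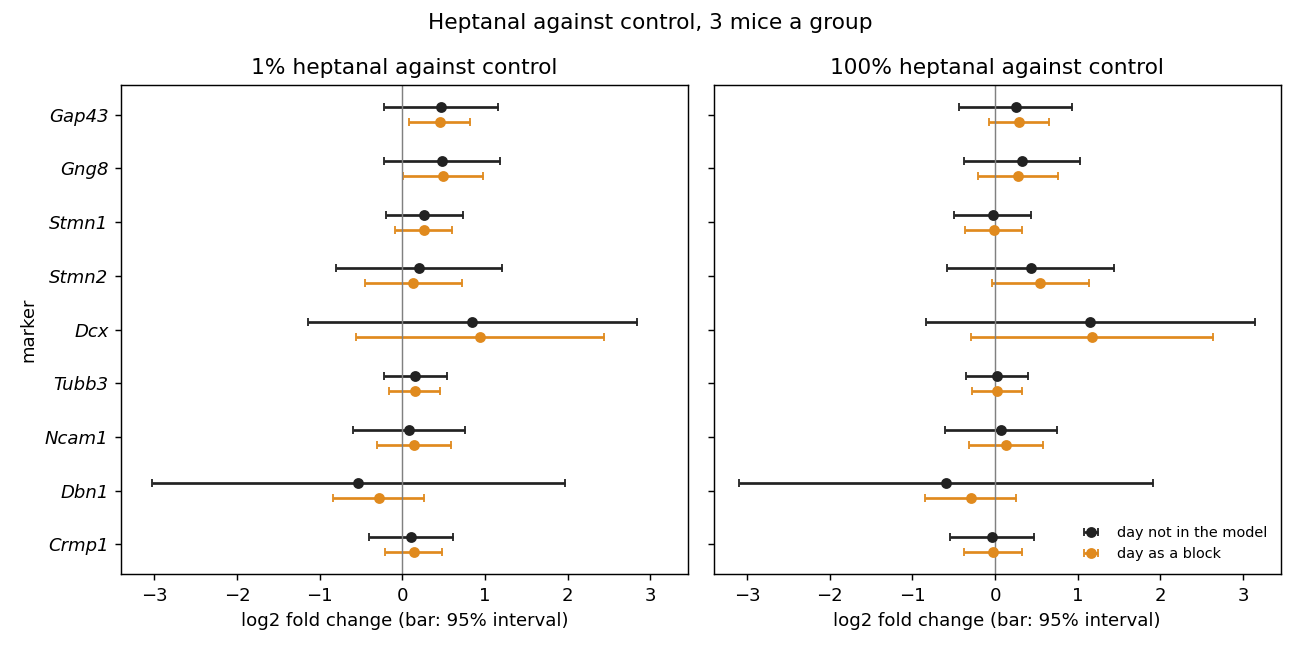
Log2 fold change against control (x axis) of the 9 markers tested (y axis), at 1% heptanal (left) and 100% heptanal (right), with 95% intervals, without postnatal day in the model (black) and with day as a block (orange). The intervals narrow with the block, most for Dbn1, and only those of Gap43 and Gng8 at 1% heptanal leave out 0.

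Set against each litter's own control, the markers were mostly on the same side within a litter, and the side differed between litters. At 1% heptanal, 9 of 9 tested markers were above the control at day 18 with a median log2 ratio of 0.62, 7 of 9 at day 21 with a median of 0.33, and 3 of 9 at day 22 with a median of -0.15. At 100% heptanal they were above it for 8 of 9, 3 of 9 and 6 of 9, with medians of 0.41, -0.10 and 0.20. Markers of 1 library share its depth and scaling, so these counts are not independent, and with 1 mouse per group and day the difference between days in the response could not be tested. Over the 3 litters, the median of the fitted log2 fold changes was 0.20 at 1% heptanal and 0.068 at 100%, beside -0.020 and -0.027 over all genes tested, and the median at 100% turned to -0.71 where libraries were scaled to mature OSN markers, as did that of all genes to -0.89. Of other genes of growing neurons, 0 of 25 tested were called at either concentration, with medians of 0.16 at 1% and -0.0057 at 100%. For these genes the fit was the one without postnatal day. At 100% heptanal 5 of these 25 had an unadjusted p under 0.05 in edgeR, beside 4.17% of all genes, and at 1% 0 did. These 5, named after their values were seen, were Calb2, Rtn1, Atf5, Stmn4 and Stmn3, with log2 fold changes of 0.65 to 1.00 and adjusted p of 0.708 to 1.0.

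The mature markers, which share the libraries, had another profile. The 13 mature OSN markers all had positive fitted log2 fold changes at 100% heptanal, with a median of 0.66, and 0 of 13 passed the threshold. These values, and those of the other lists below, are from the fit without postnatal day. With day as a block 48 of all genes were called at 100% heptanal against control, in place of 2, and the lists were not examined in that fit. Omp had 3154, 6498 and 4499 CPM in the controls of days 18, 21 and 22 and 8740, 11690 and 9225 CPM at 100% heptanal. Its log2 fold change was 1.07 with a standard error of 0.30, an unadjusted p of 0.00586 and an adjusted p of 0.774 in edgeR. Fitted log2 fold changes of 0.29 for Adcy3, 0.50 for Ano2, 1.05 for Cnga2 and 0.72 for Gnal, all of the odorant transduction pathway, had adjusted p of 1.0.

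Markers of some other cell types of the tissue also had fitted values mostly on one side of 0 at 100% heptanal. In each of the lists given here 0 were called in the fit without postnatal day. Of 8 markers of sustentacular cells, the supporting cells of the OE, 7 had positive fitted values, with a median log2 fold change of 0.63 and a summed level of 8553 to 11210 CPM against 6127 to 7260 CPM in the controls. The 8 markers of globose basal cells and neuronal precursors, from which OSNs arise, all had negative ones, with a median of -0.48 and a summed level of 115 to 116 CPM against 144 to 182 CPM. The 1% mice had 84.55 to 273.3 CPM, which reached beyond the controls on both sides. The 5 gland markers and the 6 markers of ensheathing glia were also all negative, with medians of -0.75 and -0.39. So were the 5 erythroid markers, with a median of -0.87, though Hba-a1 and Hba-a2 among them had equal values in every mouse and count as 1 measurement. Other lists had both signs. Positive values were found for 2 of 5 horizontal basal cell, 1 of 3 leukocyte and 2 of 3 endothelial markers. The same was so for 1 of 3 respiratory ciliated cell and 1 of 3 olfactory bulb neuron markers. The part of these cell types in the ratios that follow was not tested.

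The ratio of immature to mature OSN markers was lower at 100% heptanal than in the control in each litter, while the mature markers were higher in each. The geometric mean of the 9 tested markers, divided by that of Omp, Adcy3, Ano2, Cnga2 and Gnal, was 0.310, 0.213 and 0.269 in the controls of days 18, 21 and 22. At 1% heptanal it was 0.324, 0.265 and 0.393, and at 100% heptanal 0.183, 0.159 and 0.185, so the 3 mice at 100% lay below the other 6. How many of all genes would separate so over the same denominator was not counted. The highest ratio, 0.393 in the 1% mouse of day 22, came with a low value of Cnga2 in the denominator. That mouse had 19.5 CPM of Cnga2, where its control had 122 CPM and the 100% mouse of that day 410 CPM. Gap43 over Omp alone was 0.437, 0.570 and 0.712 times the ratio of the littermate control. At 100% heptanal the geometric mean of the immature markers was 1.30, 0.988 and 1.27 times that of the control, and that of the mature markers 2.20, 1.32 and 1.85 times.

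With libraries scaled to these 5 mature markers and day as a block, 8 of 9 immature markers had negative fitted values at 100% heptanal against control, with a median of -0.65. Of these, 1 was called lower, Dbn1 with -1.03 and an adjusted p of 0.0454 in edgeR. Against 1% heptanal 5 were called lower, namely Gap43, Gng8, Stmn1, Tubb3 and Crmp1, at -0.99 to -1.14 with adjusted p of 0.0288 to 0.0389. The geometric mean of the mature markers at 100% was 1.39, 1.43 and 2.78 times that at 1% for days 18, 21 and 22. Whether the calls hold without Cnga2, low in the 1% mouse of day 22, was not tested. The same scaling moved the median of all genes to -0.80 and -0.84 and called 17.4% and 30.5% of them lower, beside the 1 and 5 of 9 markers.

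**Figure D4:**
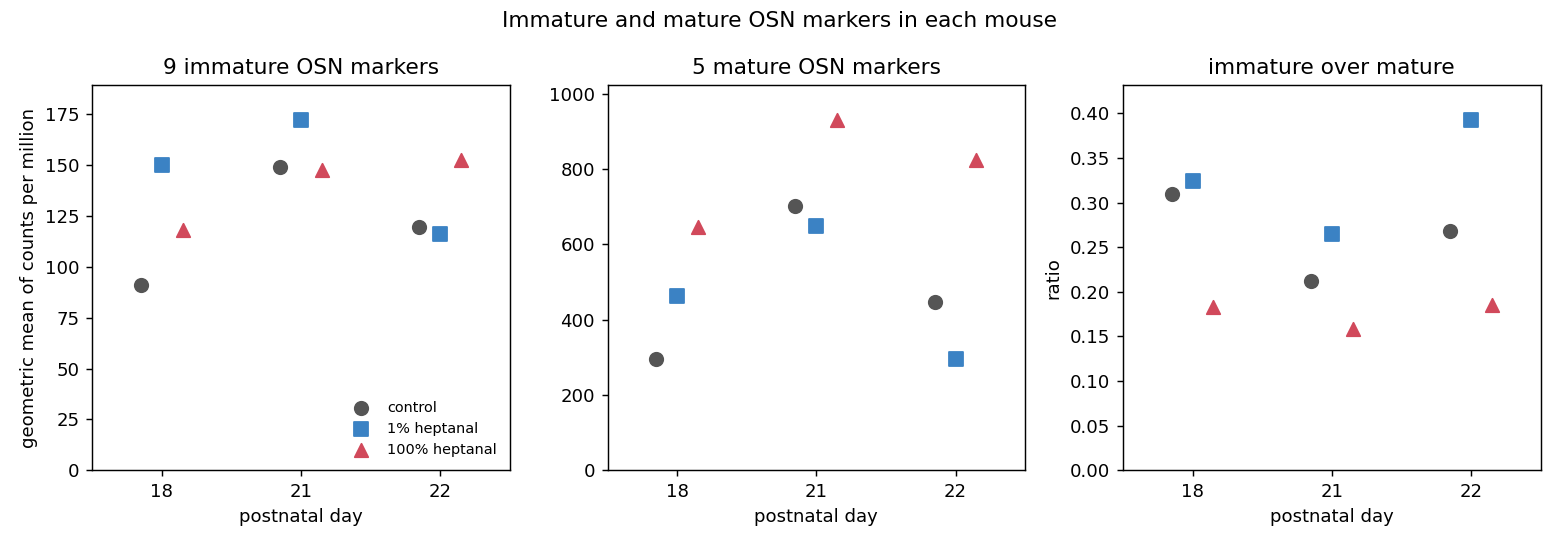
Geometric mean CPM of the 9 tested immature markers (left), of 5 mature OSN markers (middle) and their ratio (right) in each mouse, by postnatal day (x axis) and treatment (symbols), all y axes from 0. The 3 mice at 100% heptanal have ratios of 0.159 to 0.185 and the other 6 of 0.213 to 0.393.

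Differences between days, and so between litters, had more calls than those between treatments. Over the 3 days, 3 of 9 markers were called, Dbn1, Gap43 and Stmn2, where 27.0% of all genes were, so the share of the list is near the background. Without any 1 of the 3 controls, Dbn1 alone was called over the days. Between days 18 and 22 the markers called were 4 of 9, beside 29.8% of all genes, with 2 higher at day 18 (18.0% of all genes) and 2 lower (11.8%). For days 18 and 21 the count was 1 of 9 beside 1.65%, and that 1 was lower at day 18, as were 1.21% of all genes. For days 21 and 22 it was 2 of 9 beside 18.0%, both higher at day 21, as were 12.4% of all genes. Day accounted for 25.5% to 96.3% of the spread of log2 CPM over the 9 mice in the tested markers, and treatment for 0.431% to 32.5%. The share of day was the higher one in 8 of 9 markers, and in Stmn1 it was 30.0% against 32.5% for treatment. These shares were not computed for all genes, so the count does not set the markers apart from them.

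Dbn1 stood apart from the other markers. Its level at day 18 was 32.9 CPM in the control, 50.6 at 1% and 51.9 at 100% heptanal. At day 21 it was 509, 331 and 296 CPM in the same order, and at day 22 it was 658, 441 and 438 CPM. The 3 mice of day 18 lay below all others with no overlap, the highest of them at 51.9 CPM and the lowest of the rest at 296 CPM, whatever the treatment. Among all genes, 44.8% had no overlap between days 18 and 22 and 25.9% none between days 18 and 21. Day 18 was 11.2-fold below day 22 (log2 fold change -3.49, standard error 0.27, adjusted p 0.000201) and 8.06-fold below day 21 (-3.01, 0.26, 0.0011) in edgeR. Days 21 and 22 did not differ beyond their spread, at -0.48 (-1.02 to 0.065), but that pair was called where libraries were scaled to mature OSN markers, at -1.12 with an adjusted p of 0.0197 in edgeR. The call between day 18 and either other day held in all 18 other settings run, with log2 fold changes of -3.72 to -3.14 against day 22 and -3.25 to -2.29 against day 21. Reads of 1 place made up 99.99% of its counts, so it does not rest on the rescue of shared reads.

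Other genes were also lower in the day 18 litter than at day 22, and their part in the Dbn1 result was not tested. Not all had the profile of Dbn1. Of the list of growing-neuron genes, Map1b, a microtubule-associated protein of growing axons, had 309 to 647 CPM at day 18, 773 to 1035 at day 21 and 1379 to 1930 at day 22, and its log2 fold change between days 18 and 22 was -1.80 with an adjusted p of 0.000976 in edgeR. All 5 erythroid markers were called lower at day 18 than at each other day, with a summed level of 1051 to 1625 CPM against 5661 to 12330 CPM. Of these, Hba-a1 and Hba-a2 had equal values in every mouse. All 3 endothelial markers were called lower at day 18 than at day 22. Of 5 gland markers, 4 were called lower at day 18 than at day 22. Cxcl12, the ligand of Cxcr4, was also lower at day 18, with 39.4 to 50.9 CPM against 90.2 to 103 CPM, a log2 fold change of -1.16 against day 22 and an adjusted p of 0.000749 in edgeR. Between days 18 and 21, 0 of 3 endothelial markers, 1 of 5 gland markers and 0 of 25 growing-neuron genes were called. Of 6 markers of ensheathing glia, 2 were called higher and 0 lower at day 18 than at day 22.

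Gap43 and Stmn2 were lowest at day 22. Gap43 had a mean of 398 ± 73.7 CPM at day 18, 409 ± 118 at day 21 and 249 ± 48.2 at day 22 (SD, n = 3), with no overlap between day 22 and the others, as was so for 33.4% of all genes between days 21 and 22. The log2 fold change was 0.64 for day 18 against day 22 and 0.66 for day 21 against day 22, with adjusted p of 0.0168 and 0.0241 in edgeR. Scaled to mature OSN markers neither was called, at 0.79 and 0.041 with adjusted p of 0.119 and 0.933. Stmn2 had 458 ± 101, 412 ± 15.3 and 232 ± 125 CPM, and the 100% mouse of day 22, with 375 CPM, was within the range of day 18. Its log2 fold changes were 1.03 and 0.88, with adjusted p of 0.0179 and 0.0487, and the second was 0.29 with an adjusted p of 0.526 under that scaling. Dcx was also lower in all 3 mice of day 22, at 0.625 to 1.71 CPM against 1.81 to 8.08 CPM, and did not pass the threshold (adjusted p 0.095 and 0.0692).

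Other markers went the opposite way. Ncam1 had 98.4 to 163 CPM at day 18, 162 to 224 at day 21 and 176 to 242 at day 22, with a log2 fold change of -0.64 between days 18 and 22 and an adjusted p of 0.039 in edgeR. Crmp1, at -0.46, had an adjusted p of 0.053 for the same pair, and Gng8, at -0.50, of 0.105. Tubb3 had 415 ± 59.8, 417 ± 65.2 and 363 ± 31.4 CPM at days 18, 21 and 22, and Stmn1 1047 ± 223, 889 ± 193 and 828 ± 69.5 CPM. Neither passed the threshold in any pair of days. Scaled to mature OSN markers, Stmn1 was called higher at day 18 than at day 21, at 1.00 with an adjusted p of 0.0426, and Gng8 lower at day 21 than at day 22, at -1.23 with an adjusted p of 0.00975 in edgeR. Calls between days in the reported fit, other than those of Dbn1, were each lost when certain single mice were left out. Over all genes such fits called 2391 to 4411 between days 18 and 22, in place of 4453. Between days 21 and 22 they called 945 to 2846, in place of 2689. The log2 fold change of Gap43 between days 18 and 22 stayed at 0.49 to 0.83. Calls under scaling to mature OSN markers were not tested in this way. Without the control of day 18 or that of day 22, Dbn1 was the one marker still called between days 18 and 22. Without the 1% mouse of day 18 Stmn2 and Ncam1 were lost. Without the 1% mouse of day 22 Gap43 and Stmn2 were lost and Crmp1 was gained. Ncam1 was lost without the control of day 21 or the 100% mouse of day 21 or 22. Between days 21 and 22, the count of called markers was 0 without the control of day 21, the control of day 22 or the 1% mouse of day 22, and without the 100% mouse of day 21 Gap43 alone was called. Without the 1% mouse of day 21 it was Dcx alone, and without the control of day 18 Gap43 and Dbn1 were called.

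The order of the markers in this comparison ran along their base composition. Dcx, with 40.6% GC in its exons, Stmn2 with 46.1% and Gap43 with 49.7% had the most positive differences between day 18 and day 22, while Gng8, Crmp1 and Dbn1, with 56.4% to 58.2%, had negative ones. Tubb3 with 57.9% and Ncam1 with 48.0% were exceptions. All genes did likewise: the median log2 fold change of day 18 against day 22 was 2.02 over the 665 genes with up to 40% GC, 1.04 over 40% to 45%, 0.18 over 45% to 50%, -0.18 over 50% to 55% and -0.26 above that. Against day 21 the same medians for day 18 were 0.40, 0.20, 0.025, -0.050 and -0.069. For day 21 against day 22 the median was 1.65 over the genes with up to 40% GC. Day 22 is also the day with the other prefix in its sample titles, and the part of this was not tested.

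With counts corrected for GC content and exon length, a setting added after the data were seen, Gap43 kept its call with 0.64 between days 18 and 22 and an adjusted p of 0.0118 in edgeR. Dbn1 did so too, with -3.26 and 0.000234. Stmn2 did not, at 0.54 and 0.112, nor did Ncam1, at -0.50 and 0.0562. The corrected fit called 2 of 9 markers between days 18 and 22 beside 26.5% of 14079 genes with a known GC content.

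**Figure D5:**
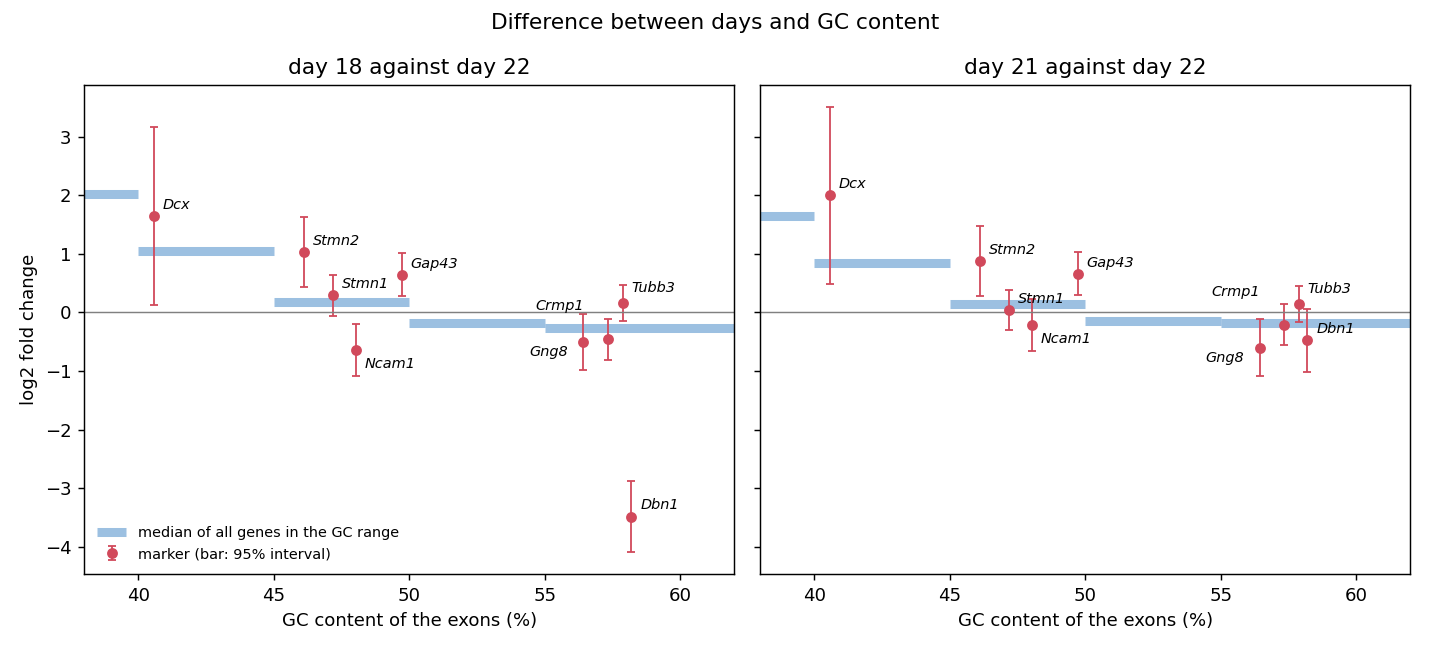
Log2 fold change between days (y axis) against the GC content of the exons (x axis) for the 9 tested markers with 95% intervals (red) and the median of all tested genes in each GC range (blue, the outermost ranges being all genes up to 40% and above 55%), for day 18 against day 22 (left) and day 21 against day 22 (right). Dcx, Stmn2 and Gap43 lie above 0 and Dbn1 at day 18 lies at -3.49, far from the median of genes of like GC content.

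Other genes of growing neurons and partners of the markers were also set between days. Of 25 tested genes of growing neurons, 4 were called over the 3 days, Map1b, Elavl3, Rtn1 and Dpysl3, beside the 27.0% of all genes. Elavl3, a neuronal RNA-binding protein, had 208 to 284 CPM at day 22, 255 to 377 at day 18 and 350.3 to 456 at day 21. Of 9 tested partners of the markers, which bind or act with their products, 4 were called: Cxcl12, Gng13, Gnas and Pafah1b1. Pafah1b1, whose product LIS1 works with doublecortin in neuronal migration, had 47.0 to 49.5 CPM at day 22 and 126 to 290.0 CPM at the other days. Gng13, the gamma subunit of mature OSNs and counterpart of Gng8, had 102 to 374 CPM at day 22 and 41.3 to 103 CPM at the others.

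The markers did not share one profile over the 9 mice. Pearson's r between a marker and the mean standardised log2 CPM of the other 8 was 0.71 for Tubb3, 0.46 for Gap43, 0.39 for Stmn1, between 0.16 and 0.26 for Gng8, Stmn2, Dcx, Ncam1 and Crmp1 and -0.12 for Dbn1, with n = 9 mice that share litters and library depth. The genes whose log2 CPM was most like the mean of the 9 markers were Duxbl1 (r = 0.91), Rab23 (0.91), Olfr315 (0.90), 1600023N17Rik (0.90) and Fezf1 (0.87). They were picked as the highest of all genes tested. Fezf1, a transcription factor of the OSN lineage, ranged from 224 to 317 CPM.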

How the data were processed

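The members, gene lists and tests were chosen with earlier results of these data known. Per the labels and methods, alignment by the authors used Bowtie and mm10, and BEDTools gave the counts per gene (versions not given in the sources used here); a rescuing scheme assigned reads of several genes. The deposited tables, 1 per mouse and without header, hold counts of reads that mapped to 1 place and estimated counts that add reads of more places; neither is normalized. Estimated counts were rounded for the quasi-likelihood test of edgeR 4.0.16 (R 4.3.3) after TMM scaling and filterByExpr with a minimum count of 10. All 9 mice were fitted together by treatment, or by postnatal day and treatment, and Benjamini-Hochberg adjusted p-values over 14930 genes had a threshold of 0.05. Standard errors are log2 fold changes divided by the square root of F.

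Same-day mice of different groups deviated together (r from 0.16 to 0.73 over 9 pairs), so postnatal day, given by the labels, served as the replicate block. The total count was 5438494 to 9707592, and floors of 3 counts cover counting error only. Genes named besides the members are called genes of the growing-neuron and partner lists, at most 6 per comparison, check genes, mature markers and the 5 most similar genes. Coordinates, exon length and GC content are from GENCODE and RefSeq on GRCm38 (mm10), and 94.3% of tested genes matched. Scripts were tested on simulated data with 200 changed genes. Alternatives included DESeq2 1.42.0, other scalings and leaving out each mouse. Plots used matplotlib.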

Additional observations from a re-analysis of the deposited data

How the results depend on the processing

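Of 21 other settings, 3 were added after the data were seen and 9 left out 1 mouse each. Dbn1 at day 18 was called against each other day in all 18 settings run for days. Gap43 between days 18 and 22 was called in 14 of 18, Stmn2 in 13 and Ncam1 in 9. With the replicate block of postnatal day the markers called stayed at 0 in all 3 comparisons of treatments, while over all genes the block called 48 at 100% heptanal against control, 0 at 1% and 12 between concentrations, and DESeq2 68, 1 and 25, in place of 2, 0 and 2. The count over all genes between days 18 and 21 was 771 with DESeq2 and 3751 with scaling to mature OSN markers, in place of 246. The members' summed share of counts was 0.198% ± 0.0425 in controls, 0.213% ± 0.035 at 1% and 0.199% ± 0.0179 at 100% heptanal for reads of 1 place, in place of 0.255% ± 0.029, 0.292% ± 0.056 and 0.259% ± 0.020 (SD, n = 3). Depth limits Cxcr4, at 0 to 4 counts per library, and Dcx, at 4 to 64.

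Counts of called markers changed as follows, and the cause was not tested. Scaled to mature OSN markers with the replicate block, 1 was called for 100% heptanal against control and 5 for 100% against 1%. Scaled so without the block, 2 were called for each pair of days, with Gng8 and Dbn1 in place of Gap43 and Stmn2 for day 21 against day 22, and Gng8 in place of Gap43 over the 3 days. DESeq2 called 4 over the 3 days, adding Ncam1, and 5 for day 18 against day 22, adding Crmp1. Library size alone called 2 over the 3 days and 3 for day 18 against day 22. Corrected for GC content and length, 2 were called over the 3 days, 2 for day 18 against day 22 and 1 for day 21 against day 22. Without the treatment term, 1 was called over the 3 days and 0 for day 21 against day 22. For that last pair, RLE size factors, library size alone and reads of 1 place each called 1. Leaving out a mouse gave 1 to 3 over the 3 days, 1 to 4 for day 18 against day 22 and 0 to 2 for day 21 against day 22.

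The sign of some log2 fold changes turned, all of them below the threshold in the reported fit. Corrected for GC content and length, these were Crmp1 0.014 for 100% heptanal against control, Dcx -0.015 and Dbn1 0.088 for 100% against 1%, Stmn1 -0.021 and -0.11 for days 18 and 21 against day 22, and Gng8 -0.036 for day 18 against day 21. With the replicate block added to that correction they were Crmp1 0.019, Dcx -0.10 and Dbn1 0.066 for the same treatments. Scaled to mature OSN markers, 100% heptanal against control gave Gap43 -0.60, Gng8 -0.51, Stmn2 -0.41, Tubb3 -0.84 and Ncam1 -0.71, and with the replicate block -0.54, -0.55, -0.28, -0.79 and -0.65. The same scaling gave Stmn2 -0.52 and Dcx -0.60 for 100% against 1% heptanal, or -0.43 and -0.53 with the block. It gave Gap43 0.75, Dcx 0.32, Ncam1 0.32 and Crmp1 0.50 for day 18 against day 21, and Stmn1 -0.57 and Tubb3 -0.46 for day 21 against day 22. Between days 18 and 21, Stmn1 was -0.043 with reads of 1 place and Tubb3 -0.0045 with library size alone.

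Leaving out 1 mouse at a time gave these ranges where a sign turned. For 100% heptanal against control they were -0.051 to 0.56 for Gng8, -0.19 to 0.39 for Ncam1, -0.0904 to 0.076 for Stmn1, -0.21 to 0.14 for Crmp1 and -0.0105 to 0.045 for Tubb3. For 1% against control they were -0.18 to 0.40 for Ncam1, -0.19 to 0.56 for Stmn2, -1.15 to 0.019 for Dbn1 and -0.067 to 0.29 for Crmp1. Between concentrations they were -0.12 to 0.63 for Stmn2, -0.65 to 1.15 for Dcx, -0.15 to 0.11 for Ncam1, -0.63 to 0.58 for Dbn1 and -0.53 to 0.065 for Gng8. For day 18 against day 21 they were -0.047 to 0.078 for Tubb3, -0.13 to 0.13 for Gap43, -0.12 to 0.34 for Stmn2, -0.072 to 0.24 for Gng8 and -1.04 to 0.21 for Dcx. For day 21 against day 22 they were -0.11 to 0.21 for Stmn1 and -0.40 to 0.0007 for Ncam1.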
